A study of Mus musculus with 9 samples.

Results

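Abl.1 cells, immortalised B cells grown from 1 clone, carry the genome of a 129S1/SvImJ x CAST/EiJ F1 female, and the regions described here are stretches of its autosomes that read as little methylated in control cells and as more methylated after 10 µM of 5-aza-2'-deoxycytidine (5-aza-dC). All cells were of this line and were collected on day 2, after growth with 1% DMSO, the solvent (2 libraries), or with 5-aza-dC at 0.2 µM (2 libraries), 2 µM (3 libraries) or 10 µM (2 libraries). Dead cells were removed by density centrifugation in every group, so each level is that of the surviving cells of 1 clone. Methylation was read by reduced representation bisulfite sequencing, which sequences CpG-rich fragments after unmethylated cytosines have been converted. The replicates are library preparation replicates, and nothing says that they came from separate cultures, so the spread between them may be technical.

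The genome was divided into 1 kb tiles, and the level of a tile was the share of methylated reads among all its reads at CpGs. A tile was selected when it lay on chromosomes 1 to 19, had at least 10 reads in each of the 9 libraries, was under 20% in each DMSO library, and had a mean of the 10 µM libraries at least 10 percentage points above the mean of the DMSO libraries. This gave 339 gaining tiles, out of 19529 autosomal tiles under 20% in each DMSO library, 64685 autosomal tiles and 66788 tiles in all. The measured levels in the DMSO and 10 µM libraries chose these tiles, so their difference between those groups is given as a description with no test. The libraries at 0.2 µM and 2 µM took no part in the choice apart from the read minimum.

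5-aza-dC is a cytidine analogue that is built into replicating DNA and traps the maintenance enzyme Dnmt1, so that methylation is lost as cells divide. CpG-dense promoters are mostly unmethylated in normal cells, and methylation of such a promoter is commonly found with a silent gene. Regions of intermediate or low methylation outside promoters are often enhancers or the edges of CpG islands. A rise in methylation is the opposite of the change for which the drug is used.

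Promoters of 5 gaining tiles are printed first, since they show where in a promoter the CpGs behind the values lie. None of the 12 tiles with the largest unweighted differences held a whole promoter window, so these 5 were chosen after their values were seen. Among the 37 windows that lay wholly inside a gaining tile, in 34 tiles, 14 had at least 8 CpGs read in every library. The first 4 come from the tiles with the largest unweighted differences among those 14, and the last from the most deeply read tile with an unweighted difference of at least 10 points. Each sequence runs 5′ to 3′ on the gene's strand from 250 bases before the transcription start to 50 bases after it, from RefSeq on build GRCm38.p6, and capitals mark the CpGs that were read in all 9 libraries.
Parm1, chr5:91517450-91517749, plus strand: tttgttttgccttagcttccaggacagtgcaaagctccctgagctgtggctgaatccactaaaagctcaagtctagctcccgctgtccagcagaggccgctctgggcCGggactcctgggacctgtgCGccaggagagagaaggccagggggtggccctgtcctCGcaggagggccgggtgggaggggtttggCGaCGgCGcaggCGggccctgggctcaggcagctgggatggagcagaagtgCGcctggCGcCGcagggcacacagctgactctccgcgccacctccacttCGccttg
Dlx1, chr2:71529195-71529494, plus strand: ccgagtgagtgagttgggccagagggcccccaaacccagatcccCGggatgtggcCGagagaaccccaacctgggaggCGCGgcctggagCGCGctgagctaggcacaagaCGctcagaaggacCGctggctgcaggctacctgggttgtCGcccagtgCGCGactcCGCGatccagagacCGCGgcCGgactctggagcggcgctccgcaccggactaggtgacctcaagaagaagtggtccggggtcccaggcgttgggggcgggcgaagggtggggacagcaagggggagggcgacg
Akap7, chr10:25200100-25200399, minus strand: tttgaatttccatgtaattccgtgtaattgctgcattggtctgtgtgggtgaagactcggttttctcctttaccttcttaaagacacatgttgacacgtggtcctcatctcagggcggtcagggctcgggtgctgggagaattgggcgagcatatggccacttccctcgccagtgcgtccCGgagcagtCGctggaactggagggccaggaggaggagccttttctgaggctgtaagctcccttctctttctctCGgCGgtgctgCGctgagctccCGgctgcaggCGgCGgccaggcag
Plxna2, chr1:194619579-194619878, plus strand: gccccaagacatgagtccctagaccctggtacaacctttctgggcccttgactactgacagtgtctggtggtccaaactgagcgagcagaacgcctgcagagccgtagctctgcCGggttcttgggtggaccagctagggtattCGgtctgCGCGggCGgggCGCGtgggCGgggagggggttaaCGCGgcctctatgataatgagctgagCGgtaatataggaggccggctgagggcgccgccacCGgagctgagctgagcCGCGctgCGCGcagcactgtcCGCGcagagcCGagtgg
Sestd1, chr2:77280543-77280842, minus strand: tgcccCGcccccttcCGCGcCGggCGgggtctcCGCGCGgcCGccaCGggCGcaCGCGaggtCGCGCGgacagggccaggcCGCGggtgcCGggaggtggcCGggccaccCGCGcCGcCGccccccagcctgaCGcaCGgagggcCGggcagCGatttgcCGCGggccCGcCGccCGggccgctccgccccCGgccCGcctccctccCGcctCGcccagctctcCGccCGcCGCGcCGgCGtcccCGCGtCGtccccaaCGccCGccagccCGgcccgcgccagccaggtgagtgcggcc

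Parm1 encodes a mucin-like membrane protein, and 11 of the 16 CpGs of its window were read in every library. Its window levels, as unweighted means over those CpGs, were 8.44% and 3.64% in DMSO, 4.55% and 8.08% at 0.2 µM, 11.5%, 28.4% and 14.5% at 2 µM, with 27.8% and 40.1% at 10 µM. The 4 lowest values were those of DMSO and 0.2 µM, and the single CpGs differed between 10 µM and DMSO by -10.8 to 50.0 points, with 9 of 11 higher at 10 µM. These means rest on 6.74 reads per CpG and library.

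Dlx1, a homeobox transcription factor of the developing forebrain, had the highest window level at 10 µM of the 5. Its window, with 16 of 27 CpGs read throughout, was at 21.5% and 0% in DMSO, 0% and 9.72% at 0.2 µM, 15.1%, 33.3% and 2.29% at 2 µM, with 25% and 71.9% at 10 µM. The libraries at 10 µM were the furthest apart of any group there, and 15 of the 16 CpGs were higher at 10 µM than in DMSO. The reads per CpG and library came to 6.23, and the summed level of the whole tile moved less, from 6.56% and 3.15% in DMSO to 10.4% and 29.7% at 10 µM.

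Akap7, which anchors protein kinase A, had 8 of 16 window CpGs read throughout, and all 8 were higher at 10 µM. Its window was at 6.61% and 8.21% in DMSO, 4.54% and 19.4% at 0.2 µM, 24.9%, 42.8% and 4.79% at 2 µM, with 10.7% and 58.1% at 10 µM. Each drug dose thus had 1 library near the DMSO values and at least 1 far above them.

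Plxna2, a semaphorin receptor, was at 6.09% and 10.5% in DMSO, 15.8% and 16.0% at 0.2 µM, 29.6%, 25.1% and 22.5% at 2 µM, with 21.6% and 38.6% at 10 µM, over 19 of its 25 window CpGs. No library with the drug reached as low as the DMSO libraries in this window. Of the 19 CpGs, 12 were higher at 10 µM, and the reads per CpG and library came to 7.06. Sestd1, with 49 of its 54 window CpGs read throughout and 12 reads per CpG and library, was at 14.8% and 13.4% in DMSO, 27.2% and 25.1% at 0.2 µM, 30.3%, 20.3% and 13.8% at 2 µM, with 24.0% and 28.7% at 10 µM. There the lowest dose was as high as the highest, and the third library at 2 µM was at the DMSO level.

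The windows inside gaining tiles were less dense in CpGs, with a median of 17 in 37 windows against 24 in the 7059 windows inside tiles under 20% in each DMSO library. In some tiles the difference lay outside the promoter window. The tile that holds the starts of 2010001A14Rik and Sap30l read 11.6 points higher at 10 µM by summed reads and 5.53 points higher in the unweighted mean. In unweighted means the Sap30l window was at 2.08% in DMSO and 1.69% at 10 µM, and the 2010001A14Rik window at 3.23% and 3.30%.

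Over all 339 tiles the medians by library were 10.0% and 8.82% in DMSO, 5.41% and 6.45% at 0.2 µM, 13.1%, 14.6% and 13.5% at 2 µM, with 24.7% and 26.5% at 10 µM. The lowest levels were therefore at 0.2 µM, with DMSO, 2 µM and 10 µM above it in that order. That order held for the group means of 166 single tiles, and 77 had DMSO lowest with the doses in rising order above it. The mean at 10 µM was the highest of the 4 groups in 321 tiles, and the selection sets it above DMSO. Among the 19529 tiles under 20% in each DMSO library these counts were 1547, 682 and 6240. Over all reads, libraries were also lowest at 0.2 µM, at 15.0% and 15.3%, and highest at 10 µM, at 27.2% and 27.1%. DMSO libraries were at 20.9% and 22.8%, and those at 2 µM at 21.2%, 22.2% and 22.8%. These pooled levels also depend on where the reads of each library fall. Over all autosomal tiles the median group mean was 67.0% in DMSO and 50% at 10 µM, with a median difference of -7.44 points. Between 10 µM and DMSO, the median log2 ratio of reads scaled to library size was 0.247 over all autosomal tiles. It was -0.305 over tiles under 20% in each DMSO library. The part of read placement in the pooled levels was not tested.

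**Figure D1:**
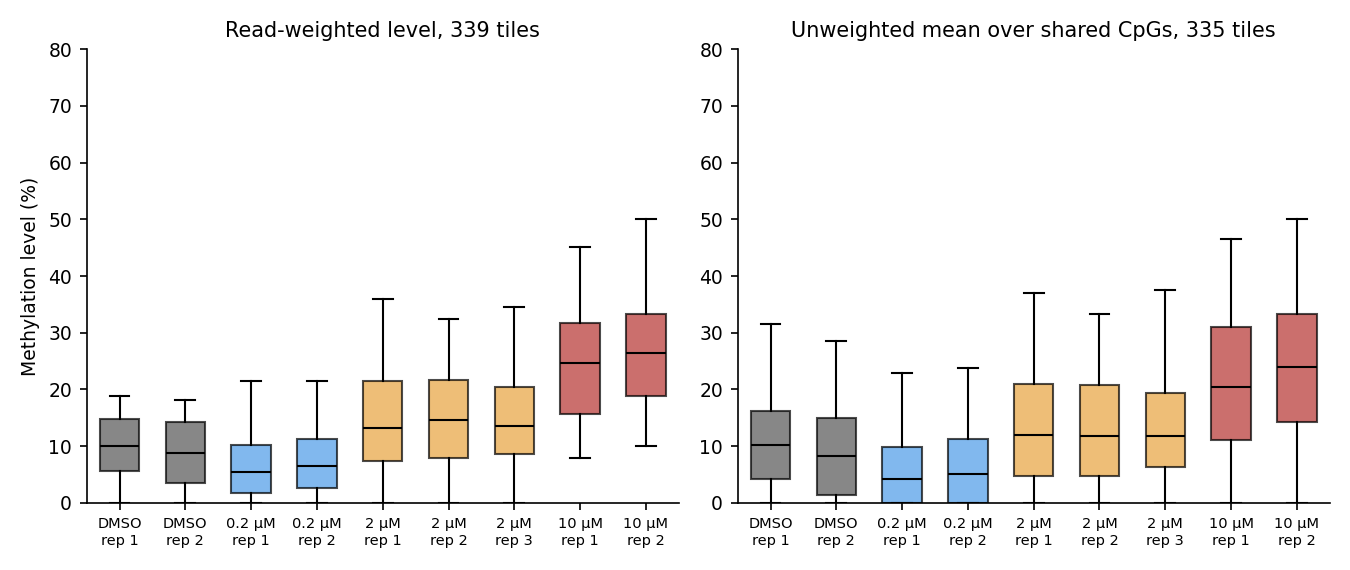
Methylation level (percent) of the gaining tiles in each library, with the read-weighted level of 339 tiles on the left and the mean with equal weight for each shared CpG, one that all 9 libraries read, on the right (335 tiles). Boxes span the quartiles, lines in them are medians and whiskers reach the 5th and 95th percentiles; the read-weighted medians run from 5.41% at 0.2 µM to 26.5% at 10 µM, and the selection itself sets the DMSO and 10 µM boxes.

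Differences between 10 µM and DMSO ran from the limit of 10 to 59.4 points, with a median of 13.8, and 77 tiles were at 20 points or more, 24 at 30 or more and 6 at 40 or more. Tiles just inside the limit were Fam131a at 10.00 points and a tile near Trim8 at 10.02. Just outside it were Rbfox2, a splicing factor, at 9.999 points, Washc3 at 9.994 and a tile near Anapc15-ps at 9.985. The limit falls in the middle of a run of like values, and Fam131a was at 0% in both DMSO libraries, 20% in the first 10 µM library and 0% in the other, where its 10 reads allow a level of up to 30%.

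Replicates at 10 µM were far apart in the gaining tiles. The median gap between the 2 libraries at 10 µM was 11.0 points, against 4.66 points between the DMSO libraries of the same tiles, which the limit of 20% holds down. Tiles under 20% in each DMSO library with a DMSO mean of 5% or more, 3125 in number and near the members in starting level, had a median gap of 4.28 points at 10 µM. Those tiles had more reads per library, 91 against 47 in the median, and a lower median level at 10 µM, 10.3% against 24.6%. The part of reads and level in the gap was not tested. In 66 members the gap was over 20 points. Both libraries at 10 µM were above both DMSO libraries in 278 of the 339 tiles, a count that the selection favours. No share over wider sets is given for it, so nothing is read from it. Over all tiles 0.169% were called higher at 10 µM than in DMSO by the binomial test described with the processing. That is another measure, and nothing is read from the members' count of calls. Each 10 µM library was at least 10 points above the DMSO mean in 148 of the 339 tiles, or 43.7%. The selection also favours this count, and nothing is read from it.

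A tile's level can also be taken with equal weight for each CpG that was read in all 9 libraries, here called a shared CpG, so that every library is read at the same positions. By that measure 190 of the 339 tiles were still at least 10 points higher at 10 µM, 102 were higher by less, 43 were not higher and 4 had no such CpG. Among the 193 tiles with at least 5 such CpGs, 112 were at least 10 points higher, and in 36 every CpG was higher at 10 µM. These counts rest on reads that chose the tiles, so the selection favours them, as it does the CpG counts of single tiles. CpGs of a tile can also share reads, so they are not separate measurements. The tile near B4galnt1, a ganglioside synthase, shows how far the measures can part. It was at 11.9% and 14.3% in DMSO and 53.1% and 59.1% at 10 µM by summed reads, and none of its 7 shared CpGs was higher at 10 µM.

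**Figure D2:**
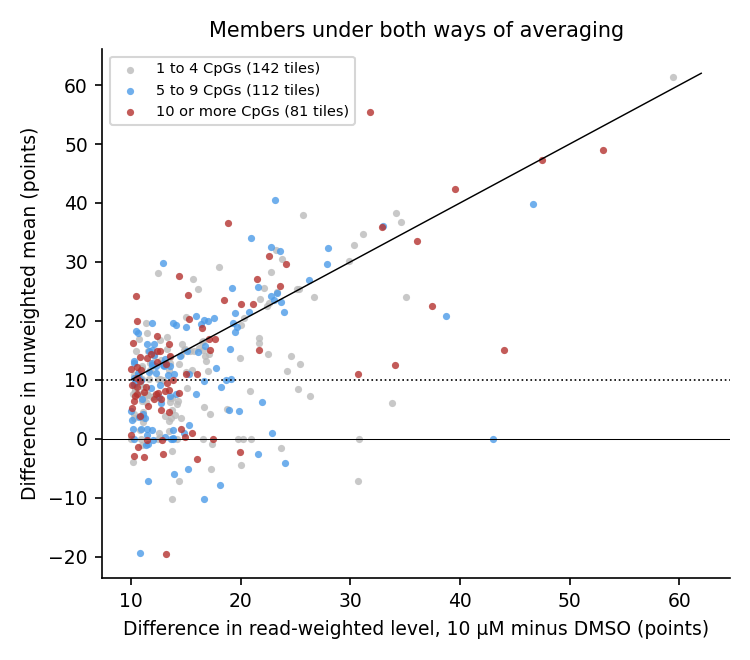
Difference between 10 µM and DMSO in the unweighted mean (points, vertical) against that in the read-weighted level (points, horizontal) for the 335 members with a CpG read in every library, coloured by the number of such CpGs. The solid line marks equal differences and the dotted line 10 points; 190 tiles lie on or above the dotted line and 43 at or below 0.

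The 12 tiles with the largest unweighted differences among those with at least 5 shared CpGs are described next, with their levels by summed reads. A tile inside Mb21d2 on mm10 (chromosome 16, 28928001 to 28929000), 698 bp from the gene's start, had the most even 10 µM libraries of the 12. It was at 15.8% and 14.9% in DMSO, 20.1% and 18.5% at 0.2 µM, 28.8%, 22.6% and 14.8% at 2 µM, with 47.5% and 46.8% at 10 µM, with 95% Wilson intervals of 38.1 to 57.2% and 37.0 to 56.8% for the last pair. The groups at 10 µM and DMSO did not overlap, and all 15 shared CpGs were higher, by 55.4 points in the unweighted mean.

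Gm3715, a transcribed pseudogene (chromosome 14, 7244001 to 7245000), was at 0% in both DMSO libraries, on 91 and 13 reads, which allow levels of up to 3.30% and 23.1%. It was at 1.10% and 51.4% at 0.2 µM, 24.7%, 48.0% and 29.7% at 2 µM, with 56.1% and 50.0% at 10 µM. The second library at 0.2 µM was as high as those at 10 µM, and the first was as low as DMSO.

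Gm36904, a long noncoding RNA gene (chromosome 1, 177323001 to 177324000), rested on a single library. It was at 8.33% and 2.78% in DMSO, 10.2% and 14.5% at 0.2 µM, 2.63%, 0% and 10.3% at 2 µM, with 6% and 100% at 10 µM. The last value came from 12 reads, all methylated, with a 95% interval of 75.8 to 100%, and without that library the tile read no higher than its first DMSO library. This gap of 94 points was the widest between the 10 µM libraries in any member.

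B3gnt3 encodes an enzyme that adds N-acetylglucosamine to glycans, and its tile holds the gene's start (chromosome 8, 71701001 to 71702000). It was at 6.59% and 12% in DMSO, 17.9% and 10.4% at 0.2 µM, 25.6%, 25.5% and 16.4% at 2 µM, with 30.3% and 67.3% at 10 µM. All 10 shared CpGs were higher at 10 µM, and the intervals of the 10 µM libraries, 22.7 to 39.0% and 53.4 to 78.8%, did not meet.

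The tile near Cyth4, an exchange factor for ARF GTPases, was at 12.1% and 13.8% in DMSO, 9.33% and 8.99% at 0.2 µM, 11.5%, 17.5% and 17.3% at 2 µM, with 31.7% and 40.5% at 10 µM. The 10 µM libraries there stood above all 7 others, and all 7 shared CpGs were higher. In the noncoding RNA gene Gm34992 the levels were 14.3% and 11.8% in DMSO, 19.4% and 28.3% at 0.2 µM, 23.7%, 21.7% and 41.9% at 2 µM, with 66.7% and 52.6% at 10 µM, so that again no other library reached the 10 µM values. A tile in Gm39027, another noncoding RNA gene, was at 0% and 16.0% in DMSO, 8.33% and 10.3% at 0.2 µM, 13.0%, 16.9% and 24.5% at 2 µM, with 34.2% and 47.8% at 10 µM.

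Elsewhere among the 12 the intermediate doses overlapped 10 µM. Ulk1, a kinase that starts autophagy, was at 0% and 19.1% in DMSO, 2.04% and 18.4% at 0.2 µM, 16.3%, 15.1% and 46.2% at 2 µM, with 24.1% and 36.9% at 10 µM. The noncoding RNA gene 2410018L13Rik was at 3.23% and 0% in DMSO, 0% and 27.4% at 0.2 µM, 48.8%, 0% and 13.6% at 2 µM, with 26.8% and 42.3% at 10 µM. In both, libraries of one dose spread over as wide a range as the doses did. The zeros in these tiles come from 24 reads in Ulk1 and Gm39027 and 42 reads in 2410018L13Rik, which allow levels of up to 12.5% and 7.14%. Over all tiles named here, a level of 0% allows at least 3.23% and at most 30%. The last 3 of the 12, in Hkdc1, in Irf8 and near Gm32719, are given with the lower doses.

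**Figure D3:**
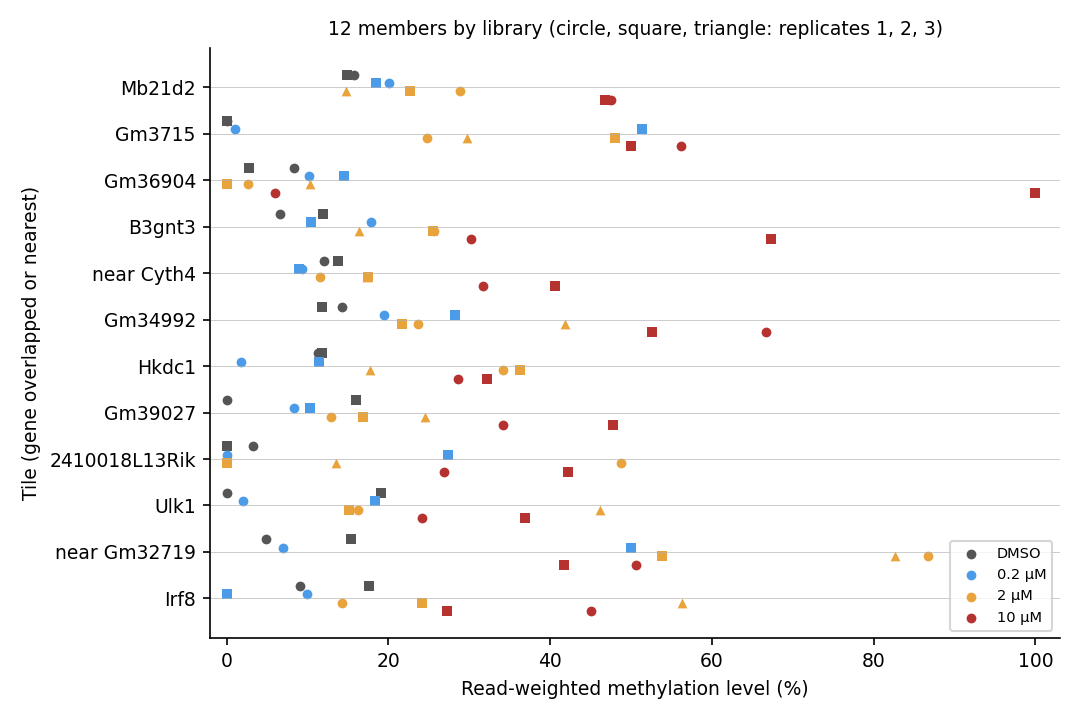
Read-weighted methylation level (percent) in each of the 9 libraries for the 12 tiles with the largest unweighted difference, ordered by it; colours mark the groups and symbols the replicates. The 10 µM libraries agree closely in Mb21d2 (47.5% and 46.8%) and stand far apart in Gm36904 (6% and 100%).

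By summed reads alone the largest differences were 59.4 points in Gm51588 and Rrad, a small GTPase, 53.1 in Gm3715, 47.4 in Gm36904, 46.6 in Gm34992, 44.0 in Cmss1 and Filip1l, and 43.0 near B4galnt1. The tile over Gm51588 and Rrad (chromosome 8, 104629001 to 104630000) was at 5.00% and 0% in DMSO, 6.06% and 8.33% at 0.2 µM, 0%, 32.1% and 58.8% at 2 µM, with 57.1% and 66.7% at 10 µM, on 12 to 42 reads per library and 4 shared CpGs.

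The most deeply read members were mostly close to the limits. D130009I18Rik, a noncoding RNA gene (chromosome 14, 104715001 to 104716000), had 3871 reads in the median library, many more than any other member. It was at 13.2% and 13.4% in DMSO, 13.4% and 13.8% at 0.2 µM, 19.7%, 22.2% and 20.6% at 2 µM, with 23.6% and 23.7% at 10 µM. The DMSO and 0.2 µM libraries there were close together, the 2 µM and 10 µM libraries stood above them, and replicates were close, yet the unweighted mean over its 7 shared CpGs differed by 0.06 points between 10 µM and DMSO. Npepl1, an aminopeptidase-like gene, was at 18.4% and 19% in DMSO and 28.1% and 29.5% at 10 µM. Its tile, with 893 reads in the median library, and those of Sestd1, with 766, and Tmem150a, with 649, each hold the gene's start. In unweighted means the difference between 10 µM and DMSO was 9.08 points in Npepl1, 10.06 in Sestd1 and 7.32 in Tmem150a. It was 5.53 points in the tile of 2010001A14Rik and Sap30l, also among the most deeply read.

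Gaining tiles had fewer CpGs and reads than other tiles of low level. The median member had 6 CpGs read in every library and 47 reads per library, against 19 and 229 in all tiles under 20% in each DMSO library and 9 and 91 in those with a DMSO mean of 5% or more. Over all autosomal tiles the medians were 6 CpGs and 56 reads, close to those of the members. Of the tiles with 1 to 4 such CpGs 5.14% were members, of those with 5 to 9 CpGs 3.45%, of those with 10 to 19 CpGs 1.24% and of those with 20 or more 0.350%. With the level in DMSO the share went up, from 0.518% of tiles under 5% to 5.87% at 5 to 10% and 10.6% at 10 to 20%. The part of read number in these trends was not tested. Median widths of the 95% Wilson intervals of members' levels were 14.0 and 18.6 points in the DMSO libraries and 22.6 and 30 points at 10 µM, and these intervals cover counting error only, as copies made by PCR were not separated.

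The share of tiles that hold a gene's start was read in the members and in 3 wider sets. Outside chromosome 18, 14.7% held a transcription start, against 41.4% of tiles under 20% in each DMSO library, 21.6% of those with a DMSO mean of 5% or more and 17.7% of all autosomal tiles. A start lay within 1 kb of 33.6% of members, 66.1% of tiles under 20%, 42.4% of those with a DMSO mean of 5% or more and 30.3% of all autosomal tiles. A gene was overlapped by 75.2% of members and by 88.2%, 78.7% and 76.1% of these sets. The members were spread over all 19 autosomes, at 1.16% of the tiles under 20% on chromosome 18 to 2.22% on chromosome 11, which had the most, 43.

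The median tile beside a member did not differ between 10 µM and DMSO as the member did. The 174 neighbouring tiles with enough reads had a median difference of -0.10 points, 16 of them were at least 10 points higher at 10 µM, and 6 were themselves members. Of these neighbours 25.9% were at 50% or more in DMSO, against 6.35% of the neighbours of all tiles under 20%, 17.6% of those of tiles with a DMSO mean of 5% or more and 35.6% of those of all autosomal tiles. Among the 88 neighbours that were themselves under 20% in each DMSO library, the median difference was 0.10 points. The members within 5 kb of each other formed 5 pairs, in Specc1, Fmn1, a formin gene, Ttc34, 2900026A02Rik with Gm42161, and Irf8, and the first 3 of these pairs were adjacent tiles.

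Whether the difference came back in other libraries was read by choosing with 1 replicate pair and reading the other. The first DMSO and first 10 µM library alone, under the same limits, chose 746 tiles. In the second pair those tiles had a median difference of 0.00 points and a mean of 0.66, with 24.5% at 10 points or more and 20.5% at -10 points or less. All were read in the same 1 DMSO and 1 10 µM library, so these shares carry no measure of variation between libraries. Among all 20466 tiles under 20% in the choosing DMSO library, 3.21% were at 10 points or more. Of those tiles 2.91% were at -10 points or less, so large differences in either direction were more frequent in the chosen ones.

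Choosing with the second pair gave 981 tiles, with a median of 1.13 points and a mean of 2.02 in the first pair. There 20.3% were at 10 points or more and 12.2% at -10 points or less, against 2.54% at 10 points or more among the 20399 tiles that could be chosen. With at least 50 reads in each library the medians were 1.97 points when the first pair chose and 1.95 when the second did. At 50 reads 21.4% were at 10 points or more and 12.1% at -10 or less in the first case, and 16.6% and 4.48% in the second. In unweighted means the medians were 0.00 and -0.19 points at 10 reads and -0.73 and -0.61 points at 50 reads. Both pairs chose 145 tiles, which is 19.4% of the 746 and 14.8% of the 981. These choices reuse the libraries that define the members, so they describe how the rule behaves and test nothing.

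**Figure D4:**
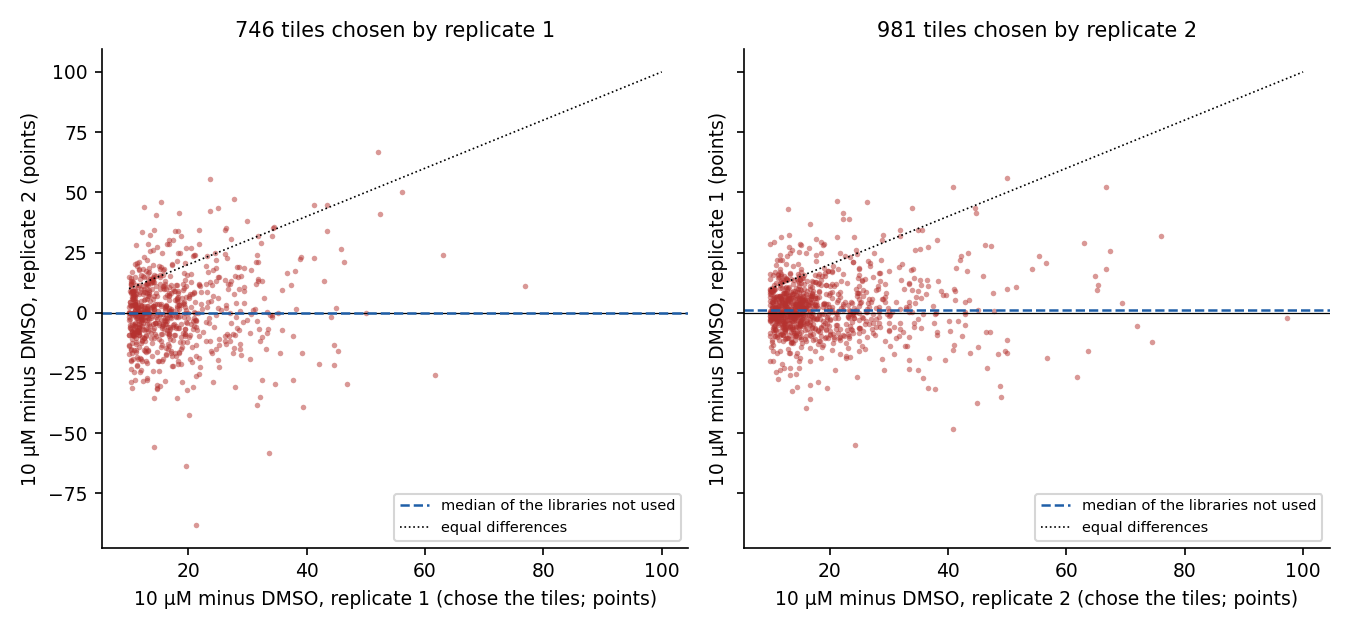
Difference between 10 µM and DMSO (points) in the replicate pair that did not choose the tiles (vertical) against that in the pair that did (horizontal), with 1 point per tile. Dashed lines are the medians, 0.00 points for the 746 tiles chosen by the first pair and 1.13 points for the 981 chosen by the second, and the dotted line marks equal differences.

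The same limits were applied at each dose, and in reverse, with tiles under 20% in each library at the dose and at least 10 points higher in DMSO. At 10 µM 339 tiles gained and 367 met the reverse rule. At 2 µM the numbers were 137 and 692, and at 0.2 µM 31 and 8385, so the reverse rule was met much more often at the lower doses. With at least 50 reads in each library 76 gained and 39 met the reverse rule at 10 µM, against 22 and 176 at 2 µM and 10 and 1490 at 0.2 µM. These counts share the DMSO libraries and are given side by side only.

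The comparison of 2 µM with 0.2 µM uses libraries that took no part in choosing the members' levels. The median member was 7.08 points higher at 2 µM, and 307 of 339 (90.6%) were higher. Of tiles under 20% in each DMSO library 63.6% were higher, and of those with a DMSO mean of 5% or more 89.6%, near the members' share. The median over all autosomal tiles was 6.72 points, over tiles under 20% in each DMSO library 0.19 and over those with a DMSO mean of 5% or more 3.94. In 144 members, or 42.5%, all 3 libraries at 2 µM were above both at 0.2 µM, beside 41.6% of all autosomal tiles and 46.9% of those with a DMSO mean of 5% or more.

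At an adjusted p under 0.05 by the moderated binomial test, 27 members (7.96%) were called higher at 2 µM, while 10.6% of all tiles were, and 1 member was called lower, with a background of 0.454%. Of the tiles with a DMSO mean of 5% or more, 7.01% were called higher. Whether the members' share lay under or over that of all tiles depended on the fit: with the replicate block it was 8.85% against 7.85%, at a minimum of 20 reads 9.29% against 8.16%, and with limma on the tile levels 2.36% against 5.81%. Without the first library at 0.2 µM the same test called 0 members higher and without the second 1, with 64 and 66 at an unadjusted p under 0.05. At an unadjusted p under 0.05, 96 members (28.3%) were higher and 3 lower at 2 µM, beside 26.8% higher among all autosomal tiles and 26.8% among those under 20% with a DMSO mean of 5% or more.

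**Figure D5:**
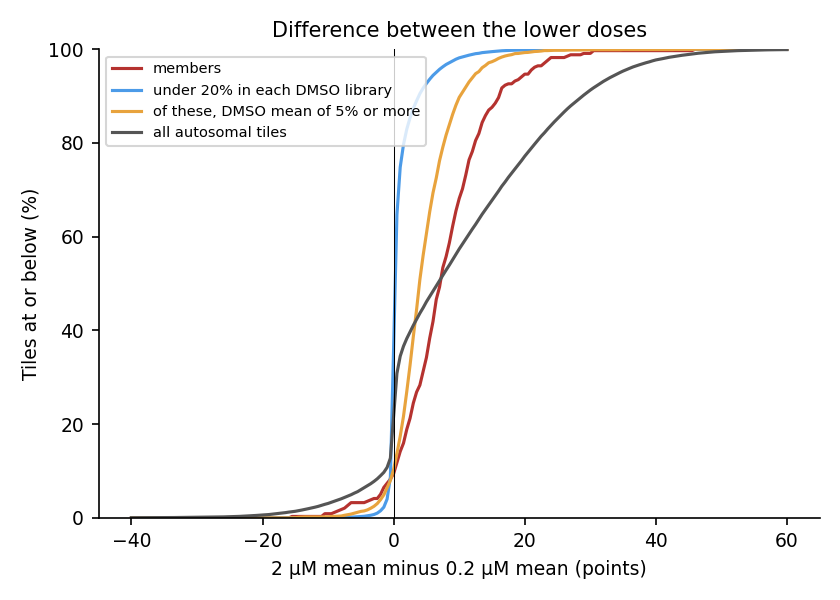
Share of tiles (percent, vertical) at or below each difference between the 2 µM and the 0.2 µM mean (points, horizontal), for the members and 3 wider sets of tiles. The members' curve crosses 50% at 7.08 points, to the right of the tiles under 20% in DMSO (0.19 points) and of those with a DMSO mean of 5% or more (3.94 points). The curve of all autosomal tiles crosses 50% close to that of the members.

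The 6 called members with the largest differences were near Gm32719, near Ankrd55, and in Gm35634, Irf8, Cmss1 with Filip1l, and Hkdc1. None of these 6 calls held with limma on tile levels (adjusted p of 0.0684 to 0.233) or with limma on unweighted means (adjusted p of 0.0575 to 0.653). The tile near Gm32719 (chromosome 12, 20197001 to 20198000) was at 6.91% and 50.0% at 0.2 µM, and the 2 µM libraries read 86.7%, 53.9% and 82.6%. It rose by 45.9 points (adjusted p = 0.00894), with 3 of 3 libraries above both at 0.2 µM, and was at 4.86% and 15.3% in DMSO and 50.7% and 41.7% at 10 µM. The 2 µM libraries there were thus above those at 10 µM, and the libraries at 0.2 µM were far apart.

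Irf8, a transcription factor of B and myeloid cells, had a pair of member tiles. The first (chromosome 8, 120743001 to 120744000), 4362 bp from the gene's start, was at 9.09% and 17.6% in DMSO, 10.0% and 0% at 0.2 µM, 14.3%, 24.1% and 56.2% at 2 µM, with 45.0% and 27.3% at 10 µM. It rose by 26.6 points between 0.2 and 2 µM (adjusted p = 0.0393), on 14 to 42 reads per library, and the adjusted p was 0.143 without the third 2 µM library. In the second Irf8 tile (chromosome 8, 120747001 to 120748000) the levels were 9.33% and 18.2% in DMSO, 19.3% and 12.9% at 0.2 µM, 17%, 38.5% and 8.97% at 2 µM, with 32.5% and 41.7% at 10 µM. Its 2 µM libraries lay on both sides of those at 0.2 µM (5.39 points, adjusted p = 0.717).

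Hkdc1, of the hexokinase family (chromosome 10, 62405001 to 62406000), was at 11.3% and 11.8% in DMSO, 1.75% and 11.4% at 0.2 µM, 34.2%, 36.2% and 17.7% at 2 µM, with 28.6% and 32.1% at 10 µM. It rose by 22.8 points between 0.2 and 2 µM (adjusted p = 0.0200), and 13 of its 14 shared CpGs were higher at 10 µM than in DMSO. In Cmss1 and Filip1l, which overlap here (chromosome 16, 57391001 to 57392000), the levels were 14.2% and 17.6% in DMSO, 20.1% and 20.5% at 0.2 µM, 39.6%, 24.7% and 67.1% at 2 µM, with 57.5% and 62.3% at 10 µM. That rise of 23.5 points had an adjusted p of 0.0481 and 0.273 without the third 2 µM library, and the unweighted difference between 10 µM and DMSO was 15.1 points in place of 44.0.

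The tiles near Ankrd55 and in Gm35634 were at 0% in both libraries at 0.2 µM, on 16 to 21 reads. They rose by 30.5 points (adjusted p = 0.0138) and 28.8 points (adjusted p = 0.0271). Both had 1 library at 10 µM well below the 2 µM mean, at 8% near Ankrd55 and 15.0% in Gm35634. Leaving out either library at 0.2 µM ended the call in 5 of these 6 tiles, with differences of 18 to 31.6 points remaining. Near Gm32719 leaving out the first ended it, at 24.4 points, and leaving out the second gave 67.5 points. Such a fit has 1 library at 0.2 µM, which is assumed to vary like those of the other groups. The 1 member called lower, named for that reason after its values were seen, lay 219 bp from the start of Abcc4, an efflux transporter. It was at 11.0% and 15.0% in DMSO, 23.1% and 22.8% at 0.2 µM, 5.06%, 14.6% and 16.2% at 2 µM, with 29.1% and 21.2% at 10 µM, a fall of 11.0 points from 0.2 to 2 µM (adjusted p = 0.0379).

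Genes of 8 lists, from B lineage regulators to imprinted genes, were looked up among the members, which are 1.74% of all tiles under 20% in each DMSO library. Of the 36 tiles under 20% in each DMSO library that overlap B lineage genes, 2 were members, both in Irf8. Genes of developmental regulator families were taken by the start of the symbol alone, such as Hox, Pax or Fox. Among their 151 tiles, 6 were members, in Dlx1, Foxo3, Gata3, Otx1, Pax9 and Pou4f1. Among 453 tiles of zinc finger genes 5 were, in Zbtb46, Zfp772, Zbtb38, Zfp934 and Zbtb7c, and among 21 tiles of genes for methylation and its removal 1 was, in Tet3. Imprinted genes had 16 such tiles, clustered protocadherins 1, and germline and ribosomal RNA genes 0, and none of these was a member. The members were chosen with results known, so nothing is read from these counts.

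Zfp772, a zinc finger gene whose tile holds its start, was at 0% and 4.88% in DMSO, 12.3% and 9.09% at 0.2 µM, 42.9%, 37.0% and 15.1% at 2 µM, with 32.4% and 18% at 10 µM. Every library with the drug was above both DMSO libraries, and all 6 shared CpGs were higher at 10 µM. The difference of 21.0 points between 2 and 0.2 µM did not pass the test (adjusted p = 0.0522). Zbtb38, which binds methylated DNA, was at 13.9% and 17.9% in DMSO and at 16.3% and 36.8% at 10 µM, 151 bp from a start, and its 10 µM libraries did not both stand above DMSO.

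Tet3, a dioxygenase that oxidises methylcytosine, was at 11.0% and 18.8% in DMSO, 0% and 8.11% at 0.2 µM, 3.92%, 8.57% and 16.1% at 2 µM, with 17.2% and 36.4% at 10 µM. The groups overlapped, and the unweighted difference was 1.55 points over 5 CpGs. Pou4f1, a transcription factor of sensory neurons, was at 14.0% and 9.09% in DMSO and 14.0% and 30.2% at 10 µM, with 32 of 48 CpGs higher. Gata3, a transcription factor of T cells, was at 9.38% and 6.67% in DMSO and 15.0% and 33.3% at 10 µM, with 3 shared CpGs. Pax9, a developmental regulator, was at 12.1% and 6.67% in DMSO and 25.9% and 16.7% at 10 µM.

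Summed reads and shared CpGs went opposite ways in Zbtb46 and Foxo3. Zbtb46, a transcription factor of dendritic cells, was at 18.5% and 19.8% in DMSO, 7.01% and 9.57% at 0.2 µM, 18%, 29.1% and 26.8% at 2 µM, with 43.6% and 34.6% at 10 µM by summed reads. It rose by 16.3 points from 0.2 to 2 µM (adjusted p = 0.00701), while the unweighted difference between 10 µM and DMSO was -2.28 points over 19 CpGs. Foxo3, a forkhead transcription factor, was at 17.6% and 19.3% in DMSO, 8.68% and 7.30% at 0.2 µM, 16.5%, 28.0% and 15.8% at 2 µM, with 24.0% and 33.4% at 10 µM. It rose by 12.1 points from 0.2 to 2 µM (adjusted p = 0.00941), and its unweighted difference between 10 µM and DMSO was -2.90 points over 44 CpGs, of which 8 were higher.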

How the data were processed

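For each library the authors deposited a table without column names, whose lines give a CpG position, methylated over all reads as text, and a score. That score, as deposited, is the methylated share times 1000 in every line and served as a check; levels were computed from the read counts in the deposited text. The build is mm10, per the submitters' processing notes; for the aligner and methylation caller the sources used here give no name. Lines of odd width (1 or 2 per library) or at repeated positions (18 to 68) were left out. Libraries held 8590777 to 16495423 reads at 1531189 to 2053468 CpGs, and the median CpG had 3 to 5 reads. Of 256267 covered positions inside RefSeq promoter windows, 256267 read CG.

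Reads were summed in 1 kb tiles. A binomial model with 1 level per group was fitted to all 66788 tiles over the 9 libraries, with read numbers scaled to their effective size by the correlation of reads within tiles, 0.00405 to 0.0321 over 5 classes of coverage and 2 of level. Dispersion was moderated with limma 3.58.1 in R 4.3.3 (trend on coverage, separately under and over 5%), floored at 1, and p-values were adjusted by Benjamini-Hochberg with 0.05 as threshold. Each adjusted p in the text is from this fit unless limma on levels is named. On simulated data for 2 µM against 0.2 µM, with 200 of 66788 tiles changed by 1.5 on the log odds scale, 74 changed tiles were called with the right sign, among them 8 of the 27 changed tiles under 20%, and 3 unchanged tiles were called.

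The members, the gene lists and the alternatives were chosen with earlier results of these data known. Tiles named are the 12 with the largest unweighted difference (at least 5 shared CpGs), the 6 largest by summed reads, the 6 largest among the called, 3 on either side of the limit (1 of them is not reported here), those in listed genes, runs within 5 kb and the 5 most deeply read. Replicate numbers did not pair libraries: the correlation of the difference between replicates 1 and 2 across tiles was -0.0101 to 0.00591 between groups. Other limits, the unweighted mean, limma on levels, a replicate block and leaving out libraries were tried.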

Additional observations from a re-analysis of the deposited data

How the results depend on the processing

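The 339 tiles became 183 at a minimum of 20 reads and 606 at a minimum of 5 reads. They became 115 with a limit of 10% in DMSO and 77 with a least gain of 20 points. Leaving out 1 DMSO or 10 µM library gave 494 to 828, with no read minimum for the library left out. Why these counts were larger was not tested. The unweighted mean gave 330 tiles, of which 169 were members. The 190 members at least 10 points higher in unweighted means were 105 of 209 with CpGs of 5 or more reads in every library and 112 of 193 with 5 or more CpGs, and 149 to 197 without 1 library. The 24.5% of chosen tiles at 10 points or more in the other pair became 20.3% when the second pair chose. It was 20.1% with the first DMSO and second 10 µM library choosing, and 24.7% with the second DMSO and first 10 µM library. In unweighted means it was 20.5%, and at 50 reads 21.4%, the last chosen after seeing the data. Named tiles that reversed were Zbtb46 (-2.28 points) and Foxo3 (-2.90 points) in unweighted means.

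The 27 members called higher at 2 µM than at 0.2 µM, and the 1 called lower, became 8 and 0 with limma on tile levels, 2 and 0 with limma on unweighted means and 17 and 0 at a minimum of 20 reads, where 183 members remain; members by unweighted means gave 24 and 0. With the replicate block, which leaves out the third 2 µM library, they were 30 and 1, and 20 of the 27 were among the 30; over all tiles the block called 5241. Leaving out 1 library gave 0 to 40 higher and 0 to 1 lower. At an unadjusted p under 0.05 these alternatives gave 55 to 100 higher and 1 to 6 lower. Over all tiles 7102 were called higher, 12320 without the scaling of reads, 10788 at a minimum of 5 reads, 3296 at 20 reads, 3879 and 1497 with limma on levels and on unweighted means, 4424 without the first DMSO library, and 191 and 73 without the first or second 0.2 µM library. The cause was not tested. The median difference of 7.08 points stayed between 6.48 and 7.58 under the alternatives tried.

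There were 2 libraries at 0.2 µM, and most calls were lost when either was left out, for a reason that was not tested. The median interval of a member's level was 12.2 to 30 points wide, which limits what a single library shows.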
